A study of Homo sapiens with 18 samples.

Results

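Retinoic acid synthesis and response genes are described here in 3 human melanoma lines that overexpress either the small MAF transcription factor MAFG or, as control, green fluorescent protein (GFP). The members are 9 of the 58870 genes in the count table, found by their gene names: STRA6, ALDH1A1, ALDH1A3, DHRS3, CRABP2, RARA, RARB, RARG and RXRA. They were chosen from their measured levels and changes in these same libraries, so their values are given below as a description and carry no test. WM164, SKMEL28 and A375 are established human melanoma lines. Total RNA of GFP or MAFG cells was sequenced from 3 libraries per condition, which makes 6 conditions and 18 libraries. Both cell populations of a line carried a lentiviral vector with an EF1α promoter and had been selected with blasticidin, and the MAFG reading frame carried a Myc-DDK tag. Each library held between 20122172 and 39025042 counts. The labels number the libraries but do not say whether they came from separate cultures, so standard errors and p-values measure only the spread between these libraries.

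Retinoic acid is the active form of vitamin A. Cells take up retinol from its plasma carrier through the membrane receptor STRA6, oxidise it to retinaldehyde, and oxidise retinaldehyde irreversibly to retinoic acid with the retinaldehyde dehydrogenases of the ALDH1A family, while DHRS3 returns retinaldehyde to retinol. CRABP2 carries retinoic acid to the nucleus, where heterodimers of a retinoic acid receptor (RARA, RARB or RARG) with a retinoid X receptor such as RXRA bind direct repeats of a short motif and switch target genes on when the ligand is present. In the melanocyte lineage retinoids are known for effects on growth and pigmentation, and RARB, STRA6 and DHRS3 are classical targets of retinoic acid itself.

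The sequence just before a transcription start is shown for ALDH1A3, STRA6, DHRS3 and RARB. The first 3 are the members whose level differed most between MAFG and GFP cells. RARB is shown because its promoter holds the retinoic acid response element from which the DR5 spacing is known. Sequences are from RefSeq on GRCh38.p14, in which all 9 members had at least 1 start and 21 windows of 250 bases in total. STRA6 had 5 of these windows, RARB 4, DHRS3 3 and ALDH1A3 1. The stretch shown for a gene comes from 1 of its windows. In the ALDH1A3, STRA6 and DHRS3 stretches any bases annotated as an untranslated region were left out. The RARB stretch was instead cut to 30 bases around the repeat. The RARB stretch is chr3:25428204-25428233 on the plus strand, 59 to 30 bases before the start, with the direct repeat in capitals. For ALDH1A3 the stretch is chr15:100879581-100879812 on the plus strand, 250 to 19 bases before the start. For STRA6 it is chr15:74202859-74203002 on the minus strand, 215 to 72 bases before a start that lies inside the gene. A reverse-strand match to the MAF recognition motif TGACNNNGC is in capitals. The STRA6 window at the upstream end of the gene, chr15:74212260-74212509, is not printed. It held its own match to that motif and matches to the receptor core motif described below. The DHRS3 stretch is chr1:12618211-12618460 on the minus strand and is the whole window.
RARB: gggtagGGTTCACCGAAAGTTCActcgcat
ALDH1A3: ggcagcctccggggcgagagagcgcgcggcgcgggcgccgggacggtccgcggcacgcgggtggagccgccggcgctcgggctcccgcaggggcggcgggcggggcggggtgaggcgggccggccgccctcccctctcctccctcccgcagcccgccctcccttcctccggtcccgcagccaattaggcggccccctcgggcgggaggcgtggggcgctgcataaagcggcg
STRA6: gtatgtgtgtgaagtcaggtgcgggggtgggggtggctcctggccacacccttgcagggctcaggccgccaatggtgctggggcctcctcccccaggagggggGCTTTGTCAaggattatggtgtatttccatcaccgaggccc
DHRS3: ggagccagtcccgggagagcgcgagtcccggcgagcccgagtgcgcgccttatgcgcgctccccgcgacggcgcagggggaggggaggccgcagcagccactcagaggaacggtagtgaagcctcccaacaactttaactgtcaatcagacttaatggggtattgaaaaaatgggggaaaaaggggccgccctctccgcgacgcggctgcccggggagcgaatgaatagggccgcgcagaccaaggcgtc

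The 21 windows were searched on both strands, overlaps allowed, for the receptor core motif spelt AGGTCA, for its other spellings (AGTTCA as well as GGTTCA as well as GGGTCA), and for DR1, DR2 and DR5, which are 2 such motifs in the same direction with 1, 2 or 5 bases between them. A DR5 lay in 1 of the 21 windows, that of RARB at chr3:25428210-25428226, 53 to 37 bases before the start, against 0.074% of all 35116 windows of the same length. This site is the known element for which RARB is shown, so its presence was fixed in advance. The 21 windows come from 9 genes, and nothing is read from any of the shares given here. No member window held a DR1 or a DR2, which occurred in 0.0968% and 0.0313% of all windows. AGGTCA was in 5 of 21 member windows (12.1% of all windows), AGTTCA in 2 (8.8%), GGTTCA in 3 (7.16%) and GGGTCA in 4 (12.1%). The MAF motif TGACNNNGC was in 5 (10.9%), namely 2 of STRA6, 2 of RXRA and 1 of RARB, and the longer MAF core TGCTGAC was in none (3.43%). The E-box CACGTG was in none (6.34%) and CATGTG in 3 (9.42%). The printed ALDH1A3 stretch was 82.3% G or C, that of STRA6 63.9% and that of DHRS3 65.2%. A match is a string of letters, not evidence of binding, and its absence from 250 bases says nothing about sites elsewhere.

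MAFG itself (GRCh38 chr17:81918270-81927735, minus strand) was first compared as a check of the labels. Levels are given as CPM, the count of a gene relative to the library's total, scaled by the trimmed mean of M values over all 18 libraries. In WM164, MAFG was at 25.8 ± 2.91 CPM (SD, n = 3) with GFP and 53.1 ± 4.59 with MAFG, a log2 fold change of 1.04 (SE 0.09, edgeR adjusted p = 6.37e-08). It rose in SKMEL28 from 24.1 ± 3.47 to 37.4 ± 1.54 CPM (log2 fold change 0.64, SE 0.10, adjusted p = 0.000128 by edgeR). In A375 the change missed the threshold (log2 fold change 0.80, SE 0.17, edgeR adjusted p = 0.0655), although the GFP libraries (23.7, 24.6 and 32.7 CPM) all lay below the MAFG libraries (56.3, 47.9 and 37.9 CPM). On the per-length scale of TPM, a share of the library's transcripts, MAFG cells stood to GFP cells at a ratio of 8.48 for WM164, 4.29 for SKMEL28 and 5.98 for A375, against 2.06, 1.55 and 1.75 in CPM.

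Melanocyte lineage markers set the lines apart. All 7 listed markers (MITF, SOX10, PMEL, MLANA, TYR, DCT and S100B) were above 3 counts in WM164 and SKMEL28, and 4 of 7 were in A375, where MLANA and TYR were at 0 in all 6 libraries and DCT at no more than 1 count. With MAFG the summed level of the 7 went from between 4690 and 5030 CPM to between 2640 and 2770 in WM164, from between 4790 and 5050 to between 4160 and 4390 in SKMEL28, and from between 35.3 and 41.6 to between 120 and 172 in A375. SOX10, a transcription factor of the neural crest and melanocytes, rose in A375 from 8.85 ± 2.35 to 114 ± 24.5 CPM (log2 fold change 3.68, SE 0.21, edgeR adjusted p = 2.12e-05). The T cell marker CD3E was at 0 throughout and PTPRC, the pan-leukocyte marker, at no more than 1 count in any library, while KRT10 and CD68 made up most of the keratinocyte and leukocyte lists, and LUM most of the fibroblast list in WM164 and SKMEL28 but COL1A1 in A375. These marker levels moved between the same groups as the retinoid genes, and their part in the results below was not tested. In bulk RNA, a change in the number of cells of one kind and a change in RNA per cell cannot be told apart. Libraries of 1 condition correlated at 0.970 to 0.985 and those of different lines at 0.758 to 0.879. By chi-square, MAFG replicate 1 of A375 lay farther from its other replicates (mean per gene 68.7 and 96.7) than the libraries of any other pair (at most 30.2). By mean correlation with its group it did not stand apart (0.9725, beside 0.9755 and 0.9729 for replicates 2 and 3).

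**Figure D1:**
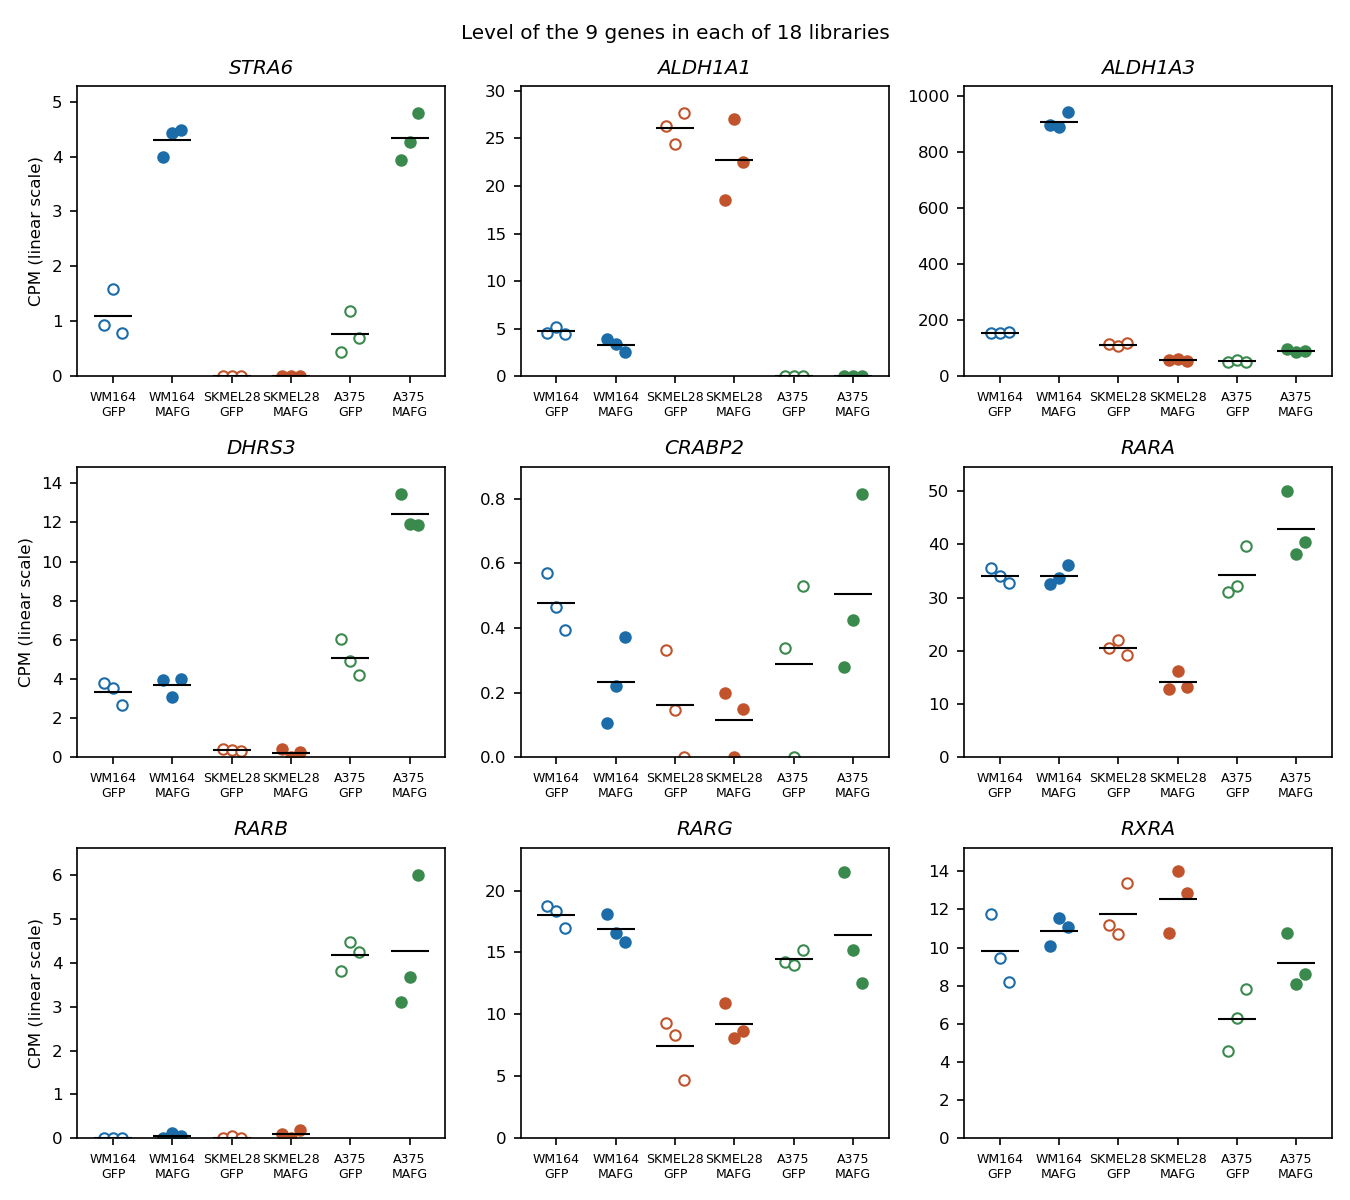
Level of each of the 9 genes in CPM (linear axis, own scale per gene) in the 18 libraries, with open points for GFP, filled points for MAFG and a line at the mean of 3 libraries. ALDH1A3 stood between 889.6 and 942 CPM in WM164 with MAFG and at no more than 160 in the other 5 conditions, STRA6 was higher with MAFG in WM164 and A375 and at 0 in SKMEL28, and RARB was above 1 CPM only in A375.

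Uptake was represented by STRA6 (ENSG00000137868.19, GRCh38 chr15:74179466-74212267, minus strand), the receptor for the retinol carrier. In WM164 it stood at 0.928, 1.59 and 0.790 CPM in the GFP libraries and at 3.99, 4.44 and 4.48 in the MAFG libraries, and in A375 at 0.443, 1.20 and 0.697 with GFP and 3.94, 4.27 and 4.79 with MAFG. In SKMEL28 it had 0 counts in all 6 libraries. Every MAFG library of WM164 and A375 therefore lay above every GFP library of its line. The level was 3.85-fold higher with MAFG in WM164 (log2 fold change 1.95, SE 0.28) and 5.55-fold higher in A375 (2.47, SE 0.37). Counts were small, between 17 and 48 in the GFP libraries and between 114 and 206 in the MAFG libraries. Without GFP replicate 2, the highest GFP library in each line, the log2 fold change was 2.31 in WM164 and 2.91 in A375. Across the 6 conditions STRA6 was highest in MAFG cells of A375 and WM164, whose ranges overlapped, then lower and again overlapping in their GFP cells, and at 0 in SKMEL28. With 3 counts per library as the limit that a count of 0 allows, GFP cells of WM164 and A375 were at least 9.43-fold and at least 6.65-fold above those of SKMEL28. Exons of CCDC33 on the opposite strand cover 6.77% of the exonic bases of STRA6, and CCDC33 had at most 19 counts in any library.

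ALDH1A3 (ENSG00000184254.17, GRCh38 chr15:100877714-100916626, plus strand) makes retinoic acid from retinaldehyde, and it was the most abundant of the 9 genes. In WM164 it stood at 156, 153 and 160 CPM with GFP and at 895, 889.6 and 942 with MAFG, so that no value of one group came near the other. In SKMEL28 the order was turned round, with 115, 107 and 118 CPM in the GFP libraries and 56.8, 62.0 and 55.6 in the MAFG libraries. In A375 the values were 49.5, 56.7 and 52.5 CPM with GFP and 96.3, 88.1 and 91.1 with MAFG. The 3 lines thus showed a 5.81-fold higher level with MAFG in WM164 (log2 fold change 2.54, SE 0.05), a 1.73-fold higher level in A375 (0.79, SE 0.10) and a lower level, by a factor of 0.513, in SKMEL28 (-0.96, SE 0.07). In CPM, MAFG cells of WM164 had the highest level of all conditions. GFP cells of WM164, GFP cells of SKMEL28 and MAFG cells of A375 followed in that order, and none of these conditions overlapped. MAFG cells of SKMEL28 and GFP cells of A375 overlapped at the bottom. In TPM the order of the first 2 GFP conditions was reversed, with SKMEL28 at 32.66 to 35.53 and WM164 at 26.01 to 31.33. Among all genes tested, ALDH1A3 lay above 95.7% of genes in GFP cells of WM164 and above 99.5% in MAFG cells. In SKMEL28 its position went from above 92.2% to above 83.8% of genes, and in A375 from above 83.1% to above 90.4%. The antisense gene ALDH1A3-AS1 shares 1715 exonic bases with it, 32.1% of its exonic length, and whether counting used the read strand was not given in the sources used here. That antisense gene had between 60 and 100 counts in GFP and between 78 and 97 in MAFG cells of WM164, beside 4045 to 4616 and 24069 to 30479 for ALDH1A3.

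ALDH1A1 (ENSG00000165092.13, GRCh38 chr9:72900671-73080442, minus strand), the other retinaldehyde dehydrogenase among the members, followed the line rather than the vector. SKMEL28 held 26.3, 24.4 and 27.7 CPM with GFP and 18.6, 27.0 and 22.5 with MAFG, and these ranges overlapped. WM164 held 4.57, 5.14 and 4.42 CPM with GFP and 3.92, 3.40 and 2.53 with MAFG, where all 3 MAFG libraries were lower (log2 fold change -0.53, SE 0.20). A375 had 0 counts in all 6 libraries. GFP cells of WM164 and SKMEL28 were therefore at least 58.1-fold and at least 322-fold above A375, and WM164 was below SKMEL28 by 2.47 on the log2 scale (SE 0.18).

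DHRS3 (ENSG00000162496.9, GRCh38 chr1:12567910-12618210, minus strand), which reduces retinaldehyde back to retinol, lay inside the call thresholds (adjusted p of 0.05 or less and a log2 fold change beyond 1) in A375, as did 0.665% of 15779 genes. That contrast served to choose the members, so this is a description and not a test. A375 libraries were at 6.05, 4.92 and 4.19 CPM with GFP and at 13.5, 11.9 and 11.9 with MAFG, with no overlap and a 2.44-fold difference (log2 1.29, SE 0.17). WM164 was at 3.78, 3.52 and 2.69 CPM with GFP and 3.95, 3.07 and 3.99 with MAFG, which overlapped (0.14, SE 0.21). SKMEL28 was low in both, at 0.400, 0.394 and 0.345 against 0.434, 0.0359 and 0.263 CPM, or at most 13 counts per library. The response of WM164 differed from that of A375 by -1.16 on the log2 scale (SE 0.36), and that of SKMEL28 by -1.90 (SE 0.53). In GFP cells DHRS3 was 13.2-fold higher in A375 and 8.73-fold higher in WM164 than in SKMEL28.

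CRABP2 (ENSG00000143320.9, GRCh38 chr1:156699606-156705816, minus strand), the nuclear carrier of retinoic acid, was near the limit of detection everywhere, with no more than 35 counts in any library. Its levels were 0.571, 0.465 and 0.395 CPM in GFP and 0.105, 0.222 and 0.371 in MAFG cells of WM164, 0.333, 0.148 and 0 against 0.200, 0 and 0.150 in SKMEL28, and 0.339, 0 and 0.530 against 0.278, 0.424 and 0.814 in A375. Each condition overlapped the next in the order of levels. The WM164 MAFG libraries lay below the GFP libraries with a log2 fold change of -1.01 whose SE was 0.59, and it was -1.54 without MAFG replicate 3 and -0.67 without MAFG replicate 1.

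RARA (ENSG00000131759.18, GRCh38 chr17:40309180-40357643, plus strand), the broadly expressed retinoic acid receptor, stood at 35.6, 34.0 and 32.8 CPM with GFP and 32.5, 33.7 and 36.0 with MAFG in WM164, a difference of -0.00 on the log2 scale with an SE of 0.08. In SKMEL28 it was at 20.6, 22.1 and 19.2 CPM with GFP and 12.8, 16.2 and 13.2 with MAFG, so that all MAFG libraries were lower (log2 fold change -0.55, SE 0.11). In A375 it was at 31.1, 32.1 and 39.6 against 50.1, 38.2 and 40.4 CPM, which overlapped (0.32, SE 0.14). In CPM, SKMEL28 thus held the lowest RARA in both conditions. Each of the 4 conditions of WM164 and A375 overlapped the next in order of level. MAFG cells of A375 (38.2 CPM or more) nevertheless lay above both conditions of WM164 (at most 36.0). In TPM, GFP cells of SKMEL28 (5.54 to 8.06) overlapped those of WM164 (6.44 to 7.47), and GFP cells of A375 (9.10 to 9.73) lay above both. RARA-AS1 on the opposite strand shares 11.7% of the exonic bases of RARA and had 0 counts in WM164, 12 to 22 in SKMEL28 and 57 to 133 in A375.

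RARB (ENSG00000077092.19, GRCh38 chr3:24687887-25597932, plus strand), the receptor whose promoter element is printed above, was above 5 counts only in A375 libraries. There it stood at 3.81, 4.48 and 4.24 CPM with GFP and 3.11, 3.68 and 6.0 with MAFG, with overlapping ranges and a log2 fold change of 0.04 (SE 0.28). WM164 had 0 counts in all GFP libraries and 0, 0.111 and 0.0618 CPM with MAFG, and SKMEL28 had 0, 0.0492 and 0 against 0.10, 0 and 0.188. These are no more than 5 counts in any library of either line. GFP cells of A375 were at least 38.5-fold above WM164 and at least 35.7-fold above SKMEL28. RARG (ENSG00000172819.17, GRCh38 chr12:53210567-53232980, minus strand), the receptor prominent in skin, was at 18.7, 18.3 and 17 CPM with GFP and 18.1, 16.6 and 15.9 with MAFG in WM164, and at 14.2, 14.0 and 15.2 against 21.5, 15.2 and 12.6 in A375. In SKMEL28 it was at 9.33, 8.32 and 4.73 against 10.9, 8.11 and 8.63 CPM. MAFG and GFP libraries overlapped in all 3 lines (log2 fold changes -0.10, 0.17 and 0.31 in WM164, A375 and SKMEL28, SE 0.09, 0.18 and 0.21). SKMEL28 lay below the other lines in both conditions in CPM. In TPM its MAFG cells (3.29 to 5.19) overlapped those of A375 (4.46 to 6.92).

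RXRA (ENSG00000186350.11, GRCh38 chr9:134317098-134440585, plus strand), the shared heterodimer partner, was found in every library. It stood at 11.7, 9.46 and 8.22 CPM with GFP and 10.1, 11.5 and 11.1 with MAFG in WM164 (log2 fold change 0.15, SE 0.13), and at 11.2, 10.7 and 13.4 against 10.8, 14.0 and 12.8 in SKMEL28 (0.09, SE 0.13). In A375 the 3 GFP libraries (4.59, 6.30 and 7.81 CPM) were all below the 3 MAFG libraries (10.8, 8.11 and 8.63), with a log2 fold change of 0.55 (SE 0.21). Only those GFP cells of A375 stood clear of the neighbouring condition in the order of levels. Without MAFG replicate 1 of A375, the library that stood apart by chi-square, the log2 fold changes in that line were 2.56 for STRA6, 1.25 for DHRS3, 0.78 for ALDH1A3, 0.45 for RXRA, 0.22 for RARA and -0.045 for RARG.

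**Figure D2:**
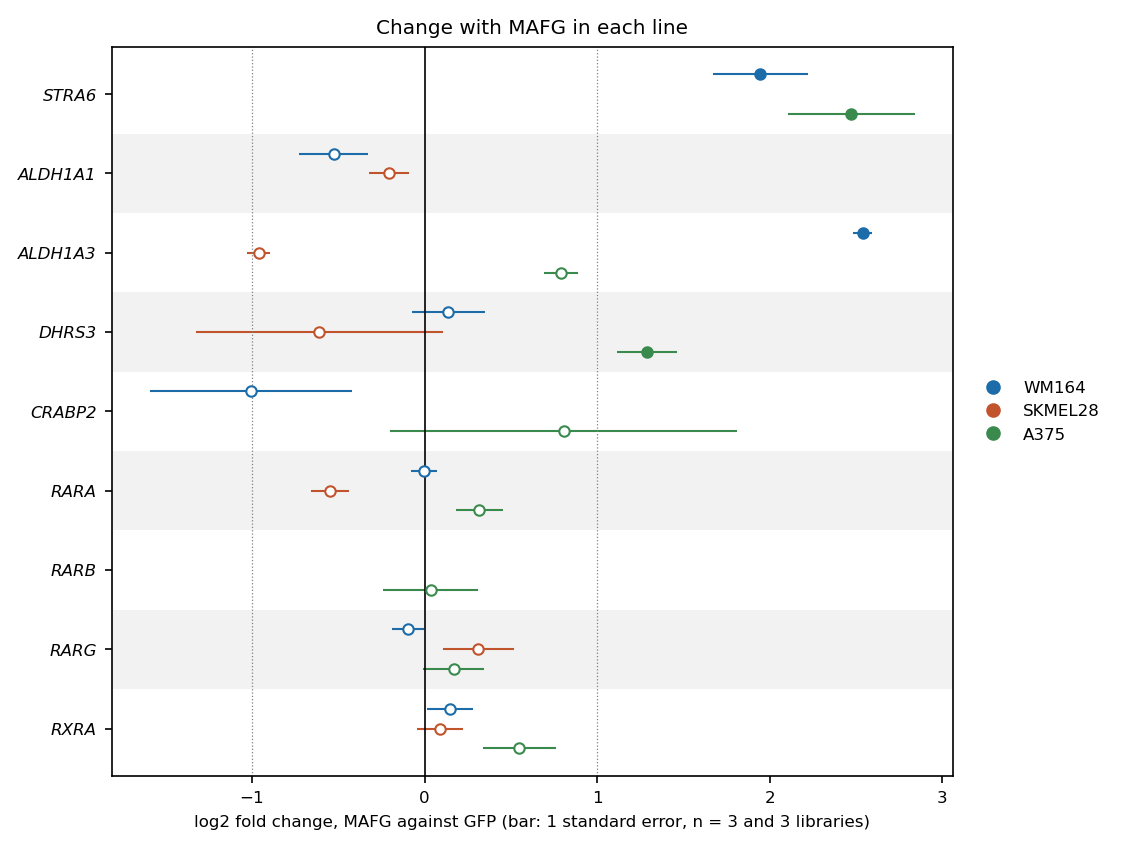
Log2 fold change of MAFG against GFP for the 9 genes in each line, with bars of 1 standard error (3 libraries against 3) and dotted lines at the fold limit of 1, filled points lying inside the call thresholds. Points are left out where a condition had at most 3 counts in each library or the gene was not in the fit. The points inside the thresholds were ALDH1A3 and STRA6 in WM164 and STRA6 and DHRS3 in A375, and ALDH1A3 in SKMEL28 lay at -0.96.

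Counted over the members, 2 of the 8 that entered the WM164 fit lay inside the call thresholds, both higher, beside 6.94% of all 15919 genes tested, 4.94% higher and 2.0% lower. In SKMEL28, 0 of 6 did, beside 4.74% of 15523 genes, 1.76% higher and 2.98% lower. In A375, 2 of 8 did, both higher, beside 0.665% of 15779 genes, 0.646% higher and 0.0190% lower. MAFG and GFP libraries did not overlap for 4 members in WM164 (2 higher and 2 lower, beside 43.4% of all genes), for 2 in SKMEL28 (both lower, beside 43.0%) and for 4 in A375 (all higher, beside 12.3%). Because these contrasts served to choose the members, nothing is read from the shares. Nearest to the fold limit were DHRS3 in A375 at 1.29 inside it and ALDH1A3 in SKMEL28 at -0.96 outside it, and CRABP2 in WM164 at -1.01 passed the fold limit without passing the p threshold.

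In GFP cells, 3 of 9 members lay inside the thresholds between A375 and WM164 (beside 46.7% of 18767 genes), 5 between A375 and SKMEL28 (beside 43.8%) and 4 between WM164 and SKMEL28 (beside 28.7%). The first were RARB, higher in A375, with ALDH1A1 and ALDH1A3 (-1.56, SE 0.07), lower. Against SKMEL28, A375 was higher in RARB, DHRS3 (3.73, SE 0.34) and STRA6 and lower in ALDH1A1 and ALDH1A3 (-1.10, SE 0.07). WM164 was higher than SKMEL28 in DHRS3 (3.13, SE 0.34), STRA6 and RARG (1.28, SE 0.20) and lower in ALDH1A1. As with the changes within a line, these levels served to choose the members, and nothing is read from the shares. The log2 response of ALDH1A3 to MAFG was larger in WM164 than in SKMEL28 by 3.50 (SE 0.10) and than in A375 by 1.74 (SE 0.10), and that of SKMEL28 stood to that of A375 at -1.76 (SE 0.10). These differences are given as a description, with no test. The 3 differences of each kind share libraries, so they are set side by side and not counted as independent.

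Per length, in TPM, ALDH1A3 was the highest of the 9 genes in 18 of 18 libraries. It made up 63.1% of their summed mean level of 46.2 TPM in GFP cells of WM164 and 90.0% of 201 TPM in MAFG cells. In SKMEL28 its share was 59.0% of 57.2 TPM with GFP and 45.7% of 33.9 with MAFG, and in A375 39.2% of 33.9 and 44.1% of 49.9. The gene in second place was ALDH1A1 in all 6 SKMEL28 libraries, with means of 11.2 TPM in GFP and 8.57 in MAFG cells, and RARA or, in MAFG replicate 1 of WM164, RARG elsewhere. SKMEL28 is therefore the line in which both ALDH1A enzymes were sizeable, and A375 the one with the largest share of RARA, 28.0% in GFP and 23.5% in MAFG cells.

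**Figure D3:**
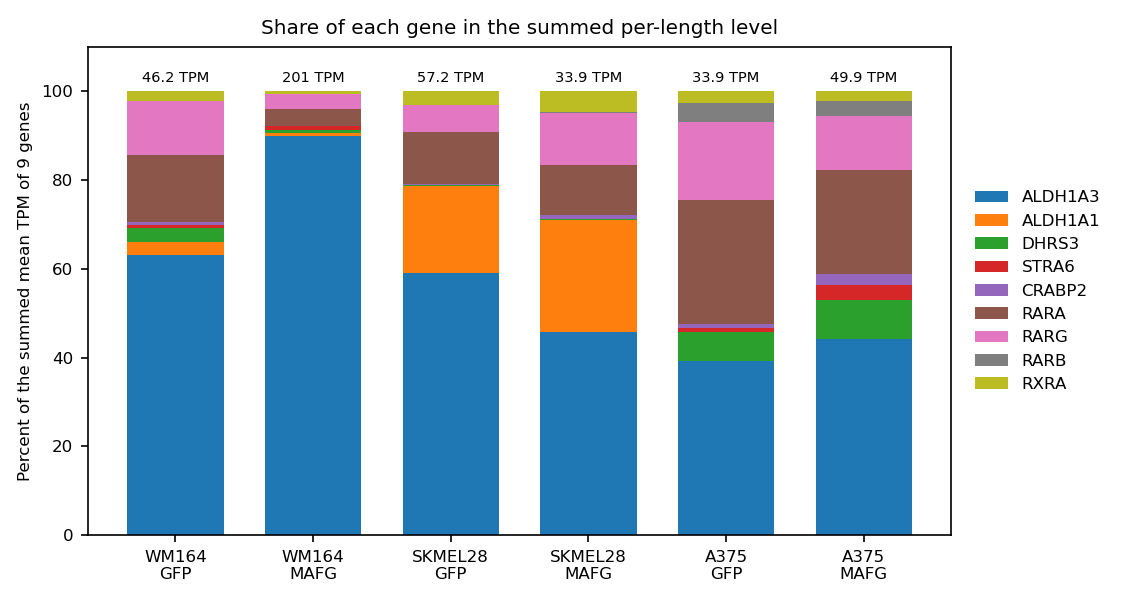
Share of each of the 9 genes in their summed mean TPM per condition, in percent (bars start at 0), with the summed level in TPM above each bar. ALDH1A3 was the largest part of every bar, from 39.2% in GFP cells of A375 to 90.0% in MAFG cells of WM164, and ALDH1A1 was visible mainly in SKMEL28.

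The genes whose log2 CPM followed a member most closely over the 18 libraries were ASAH1 and RRAGD for ALDH1A1 (Pearson r = 0.998 and 0.997), PAM and PITPNC1 for ALDH1A3 (0.981 and 0.979), GFRA1 and AL139002.1 for RARB (0.986 and 0.985), PLEKHG5 and ACSS3 for DHRS3 (0.970 and 0.960), ZNF385D and ZNF385A for STRA6 (0.971 and 0.969), and C2orf70 and CALML4 for CRABP2 (0.742 and 0.730). Among the members themselves DHRS3 followed RARA (0.912) and STRA6 (0.901), and ALDH1A1 ran opposite to RARB (-0.925). Libraries of 1 line share that line's background, so these values describe the 3 lines more than 18 independent points.

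A list of 84 other genes of retinoid metabolism and response, none of them a member, was drawn up with earlier results of these data known. Nothing is therefore read from its shares. Of the 84, 51 were tested in WM164 and 4 were called, all higher (7.84%, beside 6.94% of all genes). They were FABP5, a carrier that delivers retinoic acid to PPAR receptors, NR1H3, the oxysterol receptor LXRα and an RXR partner, PLAT, the tissue plasminogen activator, and TGM2, tissue transglutaminase. FABP5 rose from 119.5 ± 22.0 to 359 ± 26.2 CPM, 3.0-fold (log2 fold change 1.59, SE 0.10, edgeR adjusted p = 4.45e-10). PLAT rose from 163 ± 6.33 to 463 ± 22.9 CPM (1.51, SE 0.06, adjusted p = 7.15e-13), NR1H3 from 13.7 ± 1.06 to 36.2 ± 4.14 (1.40, SE 0.10, adjusted p = 3.78e-09) and TGM2 from 1.55 ± 0.491 to 4.41 ± 1.23 (1.52, SE 0.28, adjusted p = 0.000355). In these 4 genes every MAFG library lay above every GFP library. By adjusted p alone 10 of the 51 were higher and 12 lower, and the median log2 fold change over the list was -0.05 beside -0.00 over all genes.

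In SKMEL28, 51 of the 84 were tested and 4 called, 2 higher and 2 lower (7.84%, beside 4.74% of all genes). RXRG, the retinoid X receptor of the melanocyte and neural crest lineage, rose from 33.0 ± 1.05 to 75.4 ± 2.09 CPM (log2 fold change 1.20, SE 0.06, edgeR adjusted p = 1.78e-09), and on both TPM scales it lay under the fold limit and was not called. CYP26B1, which hydroxylates retinoic acid for removal, rose from 0.155 ± 0.190 to 0.828 ± 0.305 CPM (2.33, SE 0.77, adjusted p = 0.0314) on no more than 31 counts, and the call was lost without GFP replicate 2 or 3 or MAFG replicate 2 or 3. LRAT, which esterifies retinol for storage, fell from 4.08 ± 0.188 to 1.35 ± 0.663 CPM (-1.60, SE 0.31, adjusted p = 0.00104). PPARG, a receptor that pairs with RXR, went from between 36 and 50 counts to at most 2, at least 15.1-fold lower (adjusted p = 2.08e-05). By adjusted p alone 8 were higher and 7 lower, with a median of 0.05 over the 50 with a fold change, beside -0.01 over all genes.

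In A375, 52 of the 84 were tested and 1 called (1.92%, beside 0.665% of all genes). This was RXRG again, at between 0 and 6 counts with GFP and between 75 and 123 with MAFG (log2 fold change 5.40, SE 0.86, edgeR adjusted p = 0.0170). The call was lost without GFP replicate 1 or 2 or MAFG replicate 2 or 3, and SOX10 moved in the same libraries (values above). In WM164 RXRG also passed the p threshold under the fold limit, from 89.6 ± 4.36 to 136 ± 3.13 CPM (0.60, SE 0.06, adjusted p = 1.93e-07). Its response was smaller in WM164 and SKMEL28 than in A375 by -4.80 (SE 0.42, adjusted p = 7.59e-08) and -4.21 (SE 0.44, adjusted p = 1.19e-06) on the log2 scale. By adjusted p alone 2 of the 52 were higher in A375 and 0 lower, the other being PLAT (0.66, SE 0.11, adjusted p = 0.0224), and the list median was 0.04 beside -0.00 over all genes.

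**Figure D4:**
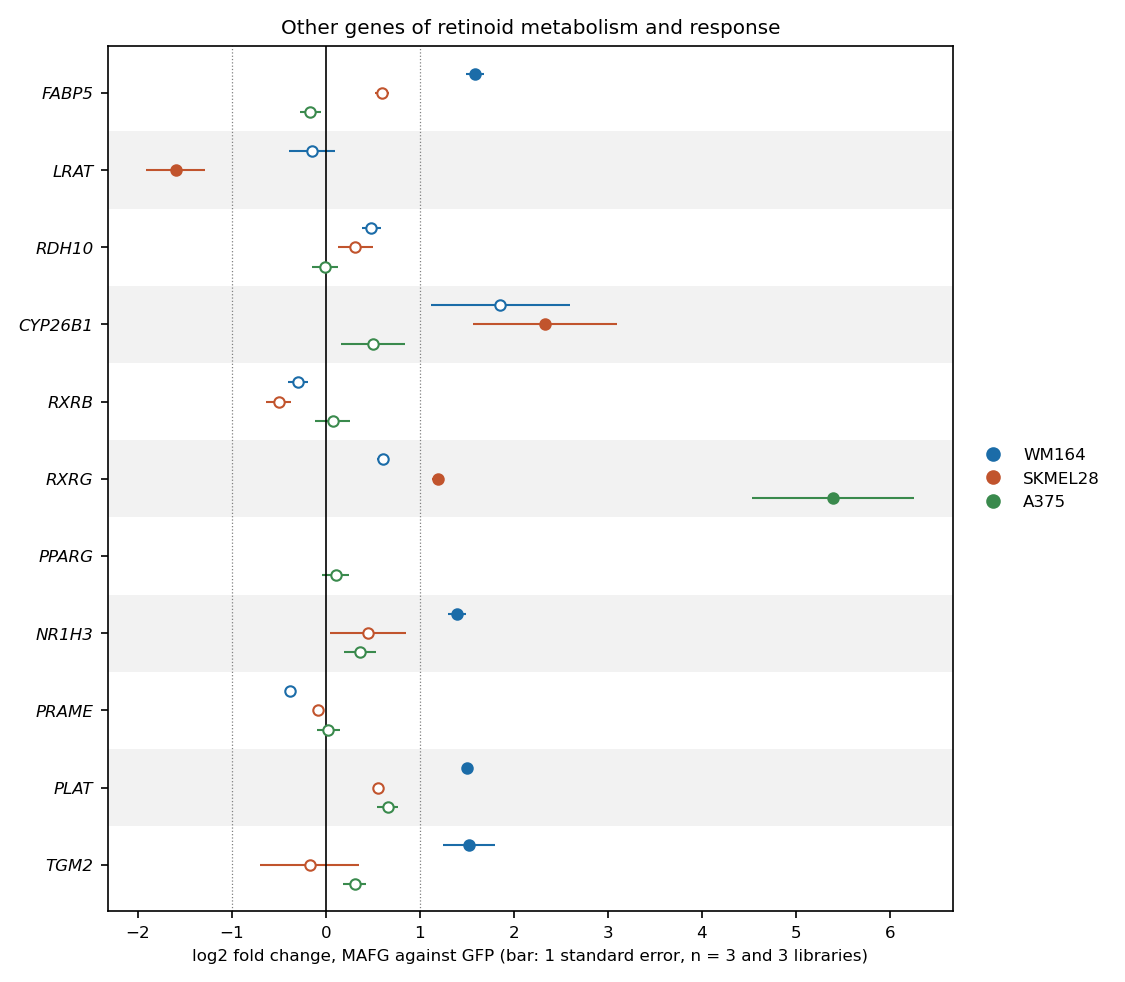
Log2 fold change of MAFG against GFP with bars of 1 standard error (3 libraries against 3) for pathway genes called in any line or named by the rule, by line, filled where called and with dotted lines at the fold limit of 1. Points are absent where a gene was not tested or a condition had at most 3 counts in each library. RXRG lay right of 0 in all 3 lines, from 0.60 in WM164 to 5.40 in A375, and FABP5, PLAT, NR1H3 and TGM2 were filled in WM164 only.

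By role, the uptake and binding proteins held 1 call among 2 genes tested in WM164, 0 of 2 in SKMEL28 and 0 of 1 in A375 by edgeR (1 and 0 genes at an unadjusted p under 0.05 and 0 and 1 by DESeq2 in the latter lines), and RLBP1, the retinaldehyde-binding protein, fell under the fold limit in WM164 (log2 fold change -0.80, SE 0.07, edgeR adjusted p = 7.09e-08). Ester storage held 1 call among 3 in SKMEL28 and 0 of 3 and 0 of 2 in WM164 and A375 (1 and 0 at an unadjusted p under 0.05, 0 and 0 by DESeq2), and the other retinaldehyde dehydrogenases and carotenoid oxygenases held 0 of 0, 0 of 2 and 0 of 1 (0 at an unadjusted p under 0.05 and 0 by DESeq2 in each). Of 8 retinol dehydrogenases and retinal reductases tested in each line edgeR and DESeq2 called 0, with 4, 1 and 0 at an unadjusted p under 0.05 in WM164, SKMEL28 and A375, though RDH10, the main retinol dehydrogenase of the embryo, passed the p threshold in WM164 (10.9 ± 0.642 to 15.2 ± 0.275 CPM, log2 fold change 0.48, SE 0.10, adjusted p = 0.00120). The hydroxylases were represented by CYP26B1, which in WM164 missed the threshold (1.85, SE 0.74, adjusted p = 0.0662), while CYP26A1, the hydroxylase most strongly induced by retinoic acid, had no more than 6 counts in any library. The receptors and partners held 1, 2 and 1 calls among 9, 9 and 10 in WM164, SKMEL28 and A375, with RXRB lower under the fold limit in WM164 (-0.30, SE 0.10, adjusted p = 0.0358) and SKMEL28 (-0.50, SE 0.13, adjusted p = 0.00866). Of 11 receptor co-regulators edgeR and DESeq2 called 0 in each line, with 4, 5 and 0 at an unadjusted p under 0.05, and PRAME, a repressor of retinoic acid receptors named after melanoma, fell under the fold limit in WM164 from 434 ± 19.5 to 333 ± 7.88 CPM (-0.38, SE 0.05, adjusted p = 1.77e-05). Genes known to respond to retinoic acid held 2 calls among 17 in WM164, 0 of 15 in SKMEL28 and 0 of 18 in A375 by edgeR (5 and 4 at an unadjusted p under 0.05 in these lines, 0 and 0 by DESeq2). CRABP1 was at 0 in all 18 libraries, and ALDH1A2 was at 0 in A375 and between 20 and 33 counts in SKMEL28.

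Between GFP cells of the lines, 25 of 56 pathway genes were called for A375 against WM164 (8 higher and 17 lower, 44.6% beside 46.7% of all genes), 26 for A375 against SKMEL28 (11 higher and 15 lower, 46.4% beside 43.8%) and 20 for WM164 against SKMEL28 (14 higher and 6 lower, 35.7% beside 28.7%). TGM2 was 121-fold higher in A375 than in WM164 and 273-fold higher than in SKMEL28, and CYP26B1 13.1-fold and 12.4-fold higher. The folds of CYP26B1 are imprecise, since it had between 0 and 11 counts in GFP cells of WM164 and of SKMEL28. RXRG, PRAME and PLAT were lower in A375 than in either other line (edgeR adjusted p between 1.41e-18 and 1.05e-16 against WM164). The response to MAFG differed for 4 of 56 between WM164 and SKMEL28 (7.14% beside 5.10%), for 7 between WM164 and A375 (12.5% beside 4.39%) and for 5 between SKMEL28 and A375 (8.93% beside 4.20%).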

How the data were processed

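RNA of 18 libraries, 3 for each of 6 conditions, was analysed from gene tables. The authors deposited counts of reads per gene, which are not normalized, and TPM values, which are scaled by transcript length and to 1 fixed total per library. Processing notes of the submitters name cutadapt 1.8.1, STAR 2.7.7a, RSEM 1.3.0, DESeq2 and GRCh38. Library totals ranged from 20122172 to 39025042 counts. Each line was fitted alone in edgeR 4.0.16 (R 4.3.3, limma 3.58.1) with TMM scaling, filterByExpr, the quasi-likelihood test and Benjamini-Hochberg adjustment over all genes tested. One model over 18 libraries gave the differences between lines and between responses. For edgeR fits, the standard error was derived as the absolute log2 fold change divided by the square root of its F statistic. Calls needed both an adjusted p no higher than 0.05 and a log2 fold change beyond 1 in either direction. A fold against a condition with at most 3 counts in each library is given as a lower bound. The members and lists were chosen with earlier results of these data known. Named genes were the members, the called list genes and a short list of pathway genes, and likeness was Pearson correlation of log2 CPM (prior count 2). Scripts were tested on simulated data. DESeq2 1.42.0, other filters, TPM scales with pseudocounts of 1 and 0.1, left-out libraries and a replicate block were tried. Positions were taken from GENCODE on GRCh38, and figures were drawn with matplotlib 3.10.9. The labels describe a kit that does not mark strand and the study's methods a strand-specific one, and the setting used in counting was not given in the sources used here, so overlapping antisense genes are uncertain.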

Additional observations from a re-analysis of the deposited data

Results flagged for a closer look

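The response to MAFG differed between lines for these pathway genes by edgeR's test of the difference itself, on 3 libraries per condition. Between WM164 and SKMEL28, the log2 response differed for ETS1 (-1.13, adjusted p = 2.03e-07), an ETS transcription factor, and TGM2 (1.73, adjusted p = 0.0285). PPARG (adjusted p = 0.000429) and TNFAIP2 (adjusted p = 0.0101) also differed, and each had a condition with at most 3 counts per library, so no size is given.

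Between WM164 and A375, the response was larger in WM164 for FABP5 (1.75, edgeR adjusted p = 9.03e-08), TGM2 (1.22, adjusted p = 0.0119), the vitamin D receptor VDR (1.04, adjusted p = 0.0379) and NR1H3 (1.03, adjusted p = 0.00473). The signed log2 fold change was higher in A375 for RXRG (-4.80, adjusted p = 7.59e-08) and LRAT (-2.72, adjusted p = 0.0254), and RLBP1 differed with an adjusted p of 6.05e-06. RLBP1 had 0 counts in all GFP libraries of A375 and between 7 and 32 with MAFG, so no size is given. In A375, LRAT had between 1 and 5 counts with GFP and between 6 and 31 with MAFG, so its differences from that line rest on few counts.

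Between SKMEL28 and A375, the signed log2 fold change was higher in A375 for RXRG (-4.21, edgeR adjusted p = 1.19e-06), LRAT (-4.16, adjusted p = 0.00103) and TNFAIP2 (-1.50, adjusted p = 0.0398). LRAT fell in SKMEL28 from 4.08 to 1.35 CPM and had at most 31 counts in A375. TNFAIP2 fell in SKMEL28 from between 17 and 34 counts to between 7 and 12, beside 84.9 and 91.3 CPM with GFP and MAFG in A375. PPARG (adjusted p = 6.67e-06) and RLBP1 (adjusted p = 5.67e-05) differed as well, and no size is given for them. PPARG went in SKMEL28 from between 36 and 50 counts to at most 2, and RLBP1 had 0 counts in GFP cells of A375.

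ALDH1A3 moved in opposite directions, with every MAFG library above every GFP library in WM164 and A375 and below in SKMEL28. The log2 difference was 3.50 for WM164 against SKMEL28 and -1.76 for SKMEL28 against A375. Both differences are given as a description with no test, since the gene was chosen on these values.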

How the results depend on the processing

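Of 201 alternative counts of pathway calls, 168 stayed within 1.5 times the reported count and 33 did not, and of 299 alternative log2 fold changes of members, 281 moved by less than 1 SD between replicates and 18 by more. The log2 fold changes of ALDH1A3 and STRA6 in WM164 and of STRA6 and DHRS3 in A375 kept their sign in every alternative. Without the fold limit the calls were 22 in WM164, 15 in SKMEL28 and 2 in A375, 40, 42 and 38 between lines (A375 with WM164, A375 with SKMEL28, WM164 with SKMEL28), and 10, 11 and 8 for responses (WM164 with SKMEL28, WM164 with A375, SKMEL28 with A375). With at least 10 counts in every library they were 2 in SKMEL28 and 0 in A375 (edgeR, 5 genes at an unadjusted p under 0.05), 13 in A375 against SKMEL28 and 13 in WM164 against SKMEL28, and 2, 3 and 0 for responses (10 at an unadjusted p in the last). On log2(TPM + 1) limma called 0 in SKMEL28 (15 at an unadjusted p under 0.05) and 0 in A375 (1), 9 between WM164 and SKMEL28, and 4 and 0 (8) for the responses against A375. On log2(TPM + 0.1) it called 0 in SKMEL28 (15), 0 in A375 (1) and 13 between WM164 and SKMEL28. For A375, DESeq2 called 2, no count filter 2 and the 18-library model 3. Leaving out 1 library gave 0 to 2 in A375 and 4 to 9 for WM164 against A375 responses, 4 without WM164 MAFG replicate 1 and 9 without A375 MAFG replicate 1. Over all genes the calls in WM164, SKMEL28 and A375 were 1105, 736 and 105, against 384, 226 and 19 on log2(TPM + 1), 617, 411 and 15 on log2(TPM + 0.1) and 734, 496 and 64 with at least 10 counts, and in A375 173 with DESeq2, 216 with no filter and 311 in the 18-library model. The TPM scale with a pseudocount of 1 moved the all-gene median to 0.137, -0.143 and -0.103 in WM164, SKMEL28 and A375. On it STRA6 stood at 0.97 in WM164 and 1.06 in A375, DHRS3 at 0.78 in A375 and ALDH1A3 at -1.08 in SKMEL28. The sign of the log2 fold change turned in some alternatives for RARA and RARG in WM164, RARB and RARG in A375 and RXRA in SKMEL28.

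Same-numbered GFP and MAFG libraries did not visibly deviate together (correlations from -0.0326 to 0.0120). Such low correlations over all genes cannot exclude a shared culture or batch, and the labels do not say whether the numbers pair the libraries. With a replicate block the pathway calls were 4 in WM164, 4 in SKMEL28 and 1 in A375, 25, 26 and 20 between lines and 6, 7 and 4 for responses, and over all genes 1056, 716 and 64.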
